A study of Mus musculus with 14 samples.

Results

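The integrated stress response was followed through 10 genes, Atf4, Atf5, Ddit3, Trib3, Asns, Chac1, Sesn2, Psat1, Phgdh and Slc7a11, of the 23284 genes measured by RNA-seq. The genes were taken by symbol, and the set was selected on the FPKM of Atf5 in the 6 siRNA libraries, where both pairs of Etv4/Etv5 siRNAs gave more Atf5 than the control siRNA, so these values of Atf5 are given as a description without a test. Slc7a11 stayed below 5 FPKM in every library (fragments scaled to transcript length and library size), and the other 9 genes passed this filter in both experiments.

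In the integrated stress response, kinases that sense endoplasmic reticulum (ER) stress, amino acid shortage, heme shortage or double-stranded RNA phosphorylate the initiation factor eIF2α. General translation then falls, while mRNAs with upstream open reading frames, such as those of the transcription factors Atf4, Atf5 and Ddit3 (CHOP), are translated more efficiently. Atf4 and its partners induce genes of amino acid synthesis, amino acid transport and glutathione metabolism, as well as inhibitors that limit the response. Since part of this control acts on translation, mRNA levels of the factors do not show their protein levels.

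EpH4 is a mouse mammary gland epithelial cell line, and EpRas is its derivative transformed with H-Ras. Untransfected EpH4 and EpRas cells were left untreated or were stimulated with 1 ng/ml TGF-β3 for 48 h, with 2 libraries in each of the 4 groups. A further set of EpRas cells received a control siRNA, called siNC, or either of 2 siRNA pairs, each holding 1 siRNA against Etv4 and 1 against Etv5, again without and with 1 ng/ml TGF-β3 for 48 h. These 6 conditions had 1 library each, so no replicate check was possible for them. All groups shared the mammary epithelial background, the culture medium and the antibiotics. EpH4 cells were grown in 10% serum and EpRas cells in 4%, so the effect of Ras and that of serum cannot be told apart. EpRas is a single derived line. The study calls the libraries of an untransfected group biological replicates. The values of transfected and untransfected cells were quantified in separate Cuffdiff runs.

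The promoters of Chac1, Asns and Slc7a11 are shown because the core of the element bound by Atf4 dimers (the C/EBP-ATF response element) was found there. The letters TGATGNAA (N is any base) were searched on both strands in the 250 bases before each RefSeq transcription start (build GRCm38.p6). They were present in 3 of the 12 windows of the 10 genes, 1 window for each of 3 genes, and in 3.45% of 32851 promoter windows of this length. Capitals mark the match, all sequences run 5′ to 3′ on the strand of the gene, and the 2 windows of Slc7a11 overlap.
Chac1, chr2:119351033-119351072, plus strand: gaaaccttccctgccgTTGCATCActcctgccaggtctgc
Asns, chr6:7693210-7693248, minus strand: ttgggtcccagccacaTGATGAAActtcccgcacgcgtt
Slc7a11, chr3:50443656-50443695, minus strand: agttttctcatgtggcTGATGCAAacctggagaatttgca
Slc7a11, chr3:50443637-50443676, minus strand: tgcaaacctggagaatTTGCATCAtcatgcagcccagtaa
The Asns match began 23 bases before the start, the Slc7a11 matches 66 and 47 bases and the Chac1 match 193 bases before it. Of these 3 genes, Chac1 passed the test between the lines and Slc7a11 did not reach the filter. The search of a fixed string describes the windows and does not show binding.

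Atf5 had 2 RefSeq starts on chromosome 7, and both windows of 250 bases are shown because the set was chosen on this gene. Neither held TGATGNAA, hence they have no capitals.
Atf5, first start, chr7:44816659-44816908, minus strand: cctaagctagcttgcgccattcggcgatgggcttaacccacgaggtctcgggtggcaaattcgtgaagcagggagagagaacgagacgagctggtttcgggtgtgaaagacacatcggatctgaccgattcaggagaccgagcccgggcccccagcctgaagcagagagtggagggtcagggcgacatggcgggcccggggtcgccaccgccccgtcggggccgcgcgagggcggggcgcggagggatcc
Atf5, second start, chr7:44815659-44815908, minus strand: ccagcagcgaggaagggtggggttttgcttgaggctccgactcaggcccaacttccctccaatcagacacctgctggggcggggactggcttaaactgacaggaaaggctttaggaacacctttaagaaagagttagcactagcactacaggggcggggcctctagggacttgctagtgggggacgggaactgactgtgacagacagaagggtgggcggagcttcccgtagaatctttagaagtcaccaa

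In the GENCODE annotation on mm10, Atf5 spans chr7:44812256-44816658 on the minus strand, and its exons overlap those of Nup62 and Il4i1 on the opposite strand. Ddit3 spans chr10:127290774-127296288 on the plus strand and shares exonic bases with Mars, the methionyl-tRNA synthetase, and with Gm4189. The libraries were directional, but whether Cuffdiff used the strand is not given in the sources used here, so the values of Atf5 and Ddit3 may hold reads of these neighbours. Phgdh has a pseudogene of its name, Phgdh-ps1, which may share reads with it.

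The 5 epithelial markers (Cdh1, Epcam, Krt8, Krt18 and Cldn4) summed to 1638 to 4400 FPKM in the untransfected and 2859 to 4549 FPKM in the siRNA libraries. The 9 markers of leukocytes, endothelium, adipocytes and fibroblasts summed to 2.51 to 10.3 and 4.59 to 15.3 FPKM, and 4 and 3 of them were listed at 0 in every library. The relative depth of the libraries, read from the steps in low FPKM, ranged from 0.609 to 1.36 in the untransfected and from 1 to 1.74 in the siRNA experiment. The replicates correlated across genes with r = 0.964, 0.982 and 0.957 in EpH4, TGF-β-treated EpH4 and EpRas cells, and with r = 0.913 in TGF-β-treated EpRas cells. In this last group 8 of the 9 genes tested were higher in replicate 2, by a median of 0.58 on the log2 scale, while 55.1% of all genes were, by a median of 0.06. For the 10 genes, tests that rest on these 2 libraries are therefore given with and without each of them where a call depends on it.

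The first question was whether the untransfected lines differed in the response and whether TGF-β changed it. The pseudokinase Trib3, which restrains the response, and Chac1, which degrades glutathione, were higher in EpRas than in EpH4 cells in both TGF-β states. The factors Atf4, Atf5 and Ddit3 did not pass the test in any comparison. No gene of the set passed the test for an effect of TGF-β in either line.

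**Figure D1:**
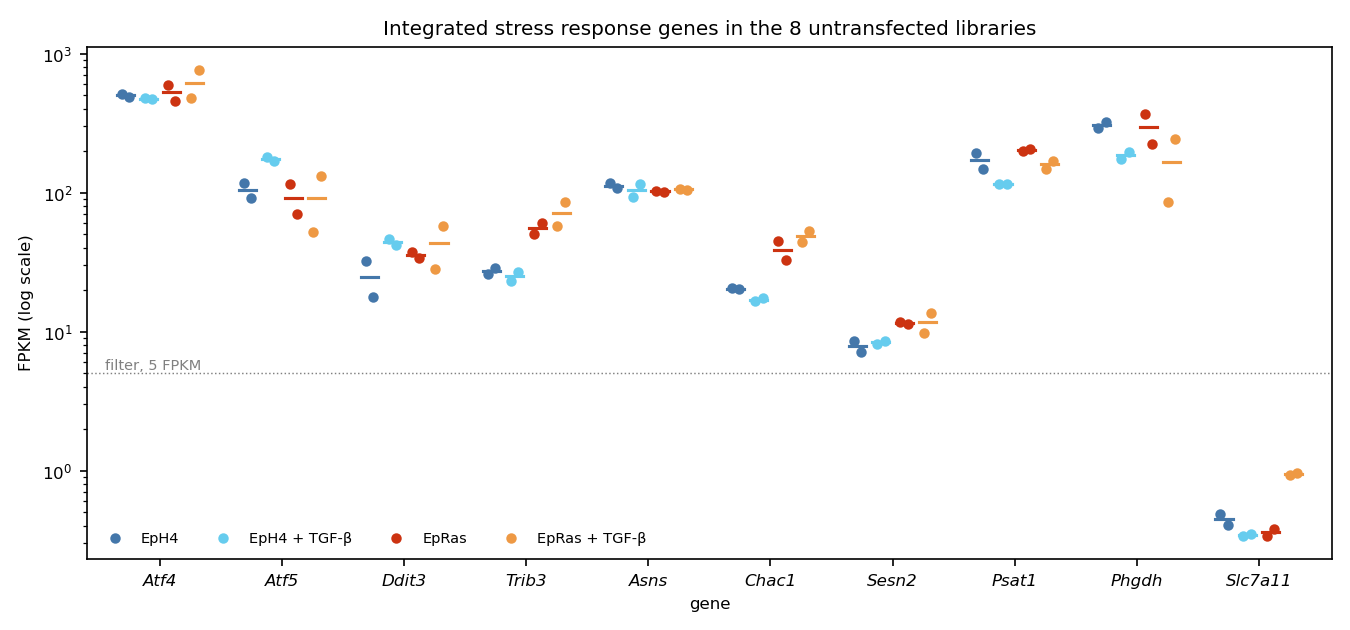
FPKM (log scale) of the 10 genes in the 8 untransfected libraries. Points are libraries, horizontal bars are means of the 2 libraries of a group, and the dotted line is the filter of 5 FPKM. For Trib3 and Chac1 all 4 EpRas libraries lie above all 4 EpH4 libraries, and Slc7a11 lies below the filter throughout.

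Atf4, the central transcription factor, was the most abundant of the 10 mRNAs. It measured 512 and 489 FPKM in EpH4 cells, 481 and 468 FPKM after TGF-β, 599 and 454 FPKM in EpRas cells, and 476 and 758 FPKM after TGF-β. The lines overlapped without and with TGF-β, and the spread of the EpRas replicates exceeded the differences between group means. The log2 difference between EpRas and EpH4 cells was 0.06 (SE 0.24, adjusted p = 0.892, limma) without TGF-β and 0.34 (SE 0.24, adjusted p = 0.361) with TGF-β.

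Atf5, a relative of Atf4, measured 117 and 91.7 FPKM in EpH4 cells, and 179 and 169.9 FPKM after TGF-β. In EpRas cells it measured 114 and 69.7 FPKM, and after TGF-β 51.8 and 133 FPKM. Both TGF-β-treated EpH4 libraries lay above all other libraries, whereas the TGF-β-treated EpRas replicates differed 2.56-fold from each other. With TGF-β, the log2 difference of EpRas from EpH4 cells was −1.06 (SE 0.43) and did not pass the test (adjusted p = 0.120, limma). Without replicate 2 of the TGF-β-treated EpRas cells it was −1.73 with an adjusted p of 0.0160, and without replicate 1 it was −0.39 with an adjusted p of 0.416, so that 1 library decided the call. The effect of TGF-β on Atf5 in EpH4 cells was 0.75 (SE 0.43, adjusted p = 0.344) in the fit to all 8 libraries, and its adjusted p was 0.0362 when the 4 EpH4 libraries were fitted alone.

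Ddit3, a factor linked to cell death in prolonged stress, measured 32.0 and 17.6 FPKM in EpH4 cells and 46.2 and 41.9 FPKM after TGF-β. It measured 37.1 and 33.7 FPKM in EpRas cells, and 28.2 and 57.9 FPKM after TGF-β. The TGF-β-treated EpH4 libraries lay above the untreated ones, and the TGF-β-treated EpRas replicates lay on both sides of the untreated EpRas libraries. The log2 effect of TGF-β was 0.86 (SE 0.37, adjusted p = 0.214, limma) in EpH4 and 0.19 (SE 0.37, adjusted p = 0.863) in EpRas cells. The first value was 0.45 without the low EpH4 replicate 2 and 1.27 without EpH4 replicate 1.

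Trib3 measured 25.8 and 28.6 FPKM in EpH4 cells, and 23.0 and 26.9 FPKM after TGF-β. In EpRas cells it measured 50.6 and 60.0 FPKM, and after TGF-β 57.1 and 86.0 FPKM. All 4 EpRas libraries lay above all 4 EpH4 libraries. The log2 difference of EpRas from EpH4 cells was 0.99 (SE 0.22, adjusted p = 0.0230, limma) without TGF-β and 1.46 (SE 0.22, adjusted p = 0.00389) with TGF-β.

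Chac1 measured 20.7 and 20.1 FPKM in EpH4 cells, and 16.5 and 17.4 FPKM after TGF-β. In EpRas cells it measured 44.9 and 32.7 FPKM, and after TGF-β 43.9 and 53.2 FPKM. Again the lines did not overlap in either TGF-β state. The log2 difference of EpRas from EpH4 cells was 0.88 (SE 0.19, adjusted p = 0.0203, limma) without TGF-β and 1.46 (SE 0.19, adjusted p = 0.00197) with TGF-β.

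In EpRas against EpH4 cells, 2 of the 9 genes tested were called higher without TGF-β, where 8.45% of all genes were called higher, 9.11% lower and 17.6% in either direction. With TGF-β 2 genes were called higher, again Trib3 and Chac1, where 8.92% of all genes were called higher, 12.3% lower and 21.3% in either direction. The median log2 difference of the 9 genes was 0.25 without TGF-β and 0.34 with TGF-β, against −0.0031 and −0.0077 for all genes tested. Without TGF-β the EpRas libraries were both higher than either EpH4 library for 5 of the 9 genes and both lower for 1. For all genes these shares were 30.6% and 30.4%. With TGF-β they were both higher for 4 of the 9 genes and both lower for 1, against 30.2% and 32.7% of all genes. The calls with TGF-β held without any 1 of the 8 libraries, with adjusted p up to 0.0431 for Trib3 and 0.0256 for Chac1. The calls without TGF-β did not. For Trib3 the adjusted p was 0.109 without EpH4 replicate 1, 0.0810 without EpH4 replicate 2, 0.0702 without EpRas replicate 1 and 0.117 without EpRas replicate 2. For Chac1 it was 0.0812 and 0.0968 without EpH4 replicate 1 or 2, 0.107 without EpRas replicate 1, and 0.0507 and 0.0504 without replicate 1 or 2 of TGF-β-treated EpH4 cells.

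**Figure D2:**
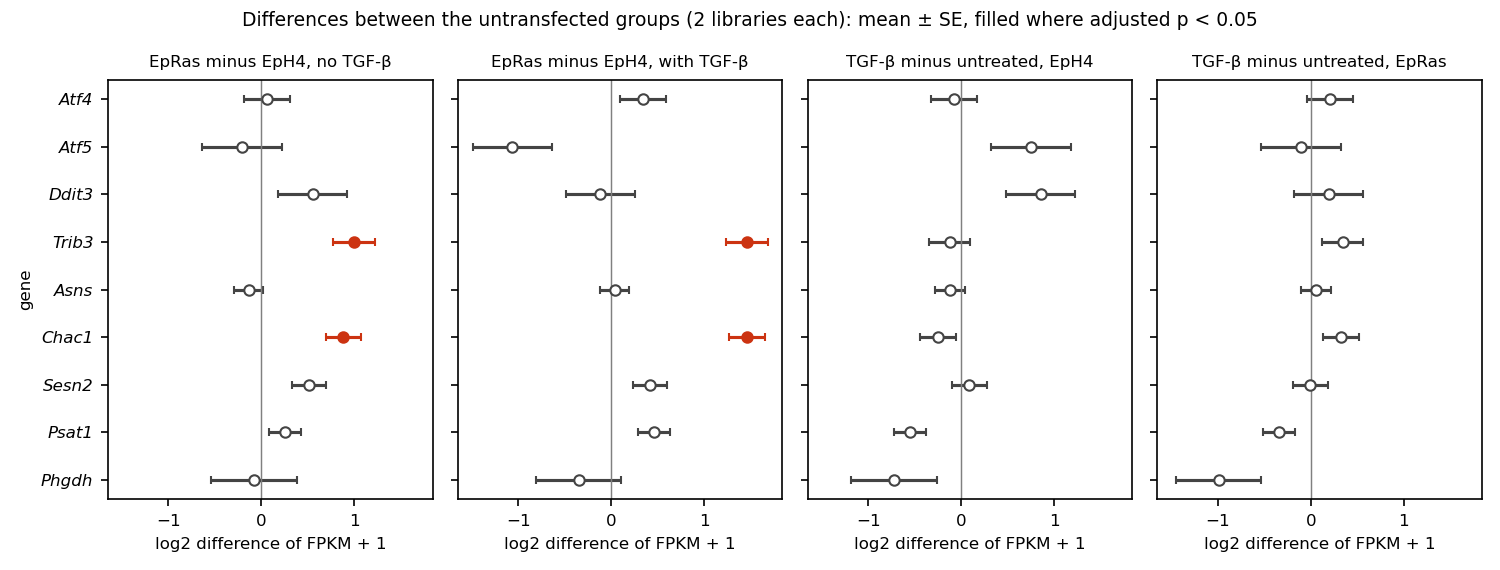
Log2 differences of FPKM + 1 between the untransfected groups for the 9 genes tested. Points are estimates, bars are standard errors, and filled points have an adjusted p below 0.05 (limma). Trib3 and Chac1 are filled in both comparisons of EpRas with EpH4 cells, and no point is filled for the effect of TGF-β.

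Sesn2 encodes a sestrin that restrains mTORC1. It measured 8.54 and 7.16 FPKM in EpH4 cells, 8.17 and 8.60 FPKM after TGF-β, 11.7 and 11.4 FPKM in EpRas cells and 9.79 and 13.5 FPKM after TGF-β. All EpRas libraries lay above all EpH4 libraries, yet the log2 differences of 0.51 (SE 0.18, adjusted p = 0.103, limma) without and 0.42 (SE 0.18, adjusted p = 0.153) with TGF-β did not pass the test. The first passed without replicate 1 or 2 of TGF-β-treated EpRas cells (adjusted p = 0.0441 and 0.0415), and the second without replicate 1 of that group (adjusted p = 0.0496).

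Asns, the asparagine synthetase, differed little between the groups. It measured 118 and 107 FPKM in EpH4 cells, 92.8 and 115 FPKM after TGF-β, 103 and 100.4 FPKM in EpRas cells, and 107 and 105 FPKM after TGF-β. The log2 difference of EpRas from EpH4 cells was −0.14 (SE 0.16, adjusted p = 0.597, limma) without TGF-β and 0.04 (SE 0.16, adjusted p = 0.894) with TGF-β.

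Psat1 and Phgdh, enzymes of serine synthesis, were lower after TGF-β in EpH4 cells without passing the test. Psat1 measured 192 and 149 FPKM in EpH4 cells, 115 and 115 FPKM after TGF-β, 198 and 205 FPKM in EpRas cells, and 149 and 169.6 FPKM after TGF-β. The treated libraries lay below the untreated ones in both lines. The log2 effect of TGF-β was −0.55 (SE 0.17, adjusted p = 0.0991, limma) in EpH4 and −0.34 (SE 0.17, adjusted p = 0.402) in EpRas cells.

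Phgdh measured 289.8 and 321 FPKM in EpH4 cells and 173 and 197 FPKM after TGF-β. In EpRas cells it measured 369.8 and 225 FPKM, and after TGF-β 85.6 and 244 FPKM, so that the treated replicates differed 2.85-fold and one of them exceeded an untreated library. The log2 effect of TGF-β was −0.72 (SE 0.46, adjusted p = 0.396, limma) in EpH4 and −0.99 (SE 0.46, adjusted p = 0.361) in EpRas cells. In EpRas cells it was −1.74 without treated replicate 2, and it ranged from −1.74 to −0.24 when each library was left out. The difference between the treated lines was −0.35 (adjusted p = 0.618, limma) with all libraries. It was −1.10 without replicate 2 of the TGF-β-treated EpRas cells and 0.40 without replicate 1, so that 1 library set its direction. With the 4 EpH4 libraries fitted alone, the effect in EpH4 cells had an adjusted p of 0.0295.

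Slc7a11, the cystine transporter of the xCT system, measured 0.491 and 0.403 FPKM in EpH4 cells, 0.340 and 0.351 FPKM after TGF-β, 0.341 and 0.383 FPKM in EpRas cells, and 0.923 and 0.962 FPKM after TGF-β. These values rest on 11 to 42 reads per library. Both TGF-β-treated EpRas libraries lay above the other 6. When genes of all levels were tested, the log2 effect of TGF-β in EpRas cells was 0.51 (SE 0.08, adjusted p = 0.0409, limma) and the difference of EpRas from EpH4 cells with TGF-β was 0.53 (SE 0.08, adjusted p = 0.00936). The pseudocount of 1 FPKM makes these values smaller than the change in FPKM itself.

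For the effect of TGF-β, 0 of the 9 genes were called in EpH4 cells (6.48% of all genes were called higher, 2.91% lower and 9.4% in either direction), with 1 of them (Psat1) at an unadjusted p below 0.05 in limma and 0 of 10 by the Tukey-Kramer test. In EpRas cells 0 of 9 were called (1.9% of all genes were called higher and 3.82% in either direction), with 0 at an unadjusted p below 0.05 and 1 of 10 (Slc7a11) by the Tukey-Kramer test. Of the differences between the effects of TGF-β in EpRas and EpH4 cells, 0 of 9 were called by limma, with 0 at an unadjusted p below 0.05, against 0.802% of all genes called. The largest of these differences was that of Atf5, −0.85 (SE 0.61, adjusted p = 0.658), and their standard errors ranged from 0.22 to 0.65. Whether fewer cells of a state or less RNA per cell set a level cannot be told apart in these bulk samples.

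The siRNA experiment addressed how the response depended on Etv4 and Etv5, and both targets were lower with each pair. Etv4 measured 57.4 FPKM with siNC, 11.6 with pair 1 and 27.9 with pair 2 without TGF-β, and 64.3, 12.6 and 18.9 FPKM with TGF-β. Etv5 measured 8.85, 1.61 and 1.26 FPKM without TGF-β, and 5.34, 1.24 and 1.20 FPKM with TGF-β. Pair 2 left more Etv4 than pair 1, 0.485 against 0.202 of the siNC level without TGF-β. Both pairs were compared with the same siNC library of each TGF-β state, so their ratios are not independent. The intervals of the ratios are exact binomial 95% intervals of the reads and cover counting error only.

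Atf5 is the gene for which the set was chosen. Without TGF-β it measured 16.3 FPKM with siNC, 53.2 with pair 1 and 55.6 with pair 2, and with TGF-β 28.3, 80.1 and 113 FPKM. Each pair was above siNC in both TGF-β states. The ratios to siNC were 3.27 and 3.42 without and 2.83 and 4.00 with TGF-β, which ranked Atf5 66th and 55th from the highest among 9094 genes by the mean of both pairs. Atf5 has 2 transcription starts, so its reads could not be recovered, and the intervals that Cuffdiff gives overlapped between siNC (0 to 35.4 FPKM) and pair 1 (7.79 to 98.6 FPKM) without TGF-β. Nup62, which overlaps Atf5 on the other strand and encodes a nucleoporin, had ratios of 1.62 and 1.58 without and 1.28 and 1.34 with TGF-β. Its part in the Atf5 values was not tested.

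Atf4 measured 298 FPKM with siNC, 325 with pair 1 and 382 with pair 2 without TGF-β, and 396, 576 and 569 FPKM with TGF-β. It was above siNC with each pair in both states. The ratios were 1.09 (1.04 to 1.14) and 1.28 (1.23 to 1.34) without TGF-β, and 1.46 (1.41 to 1.5003) and 1.44 (1.39 to 1.48) with TGF-β. These lay just under the 1.5-fold that was asked of both pairs.

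Ddit3 did not follow Atf4 and Atf5 upwards. It measured 34.0, 25.3 and 33.03 FPKM with siNC, pair 1 and pair 2 without TGF-β, and 37.8, 28.1 and 28.9 FPKM with TGF-β. With TGF-β both ratios were below 1, at 0.745 (0.620 to 0.893) and 0.766 (0.635 to 0.922). The overlapping gene Mars had ratios of 1.22 and 1.23 there. The interval that Cuffdiff gives for Ddit3 with TGF-β was 0 to 88.1 FPKM with siNC. It was 0 to 79.6 FPKM with pair 1 and 0 to 82.9 FPKM with pair 2, so these intervals overlapped.

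**Figure D3:**
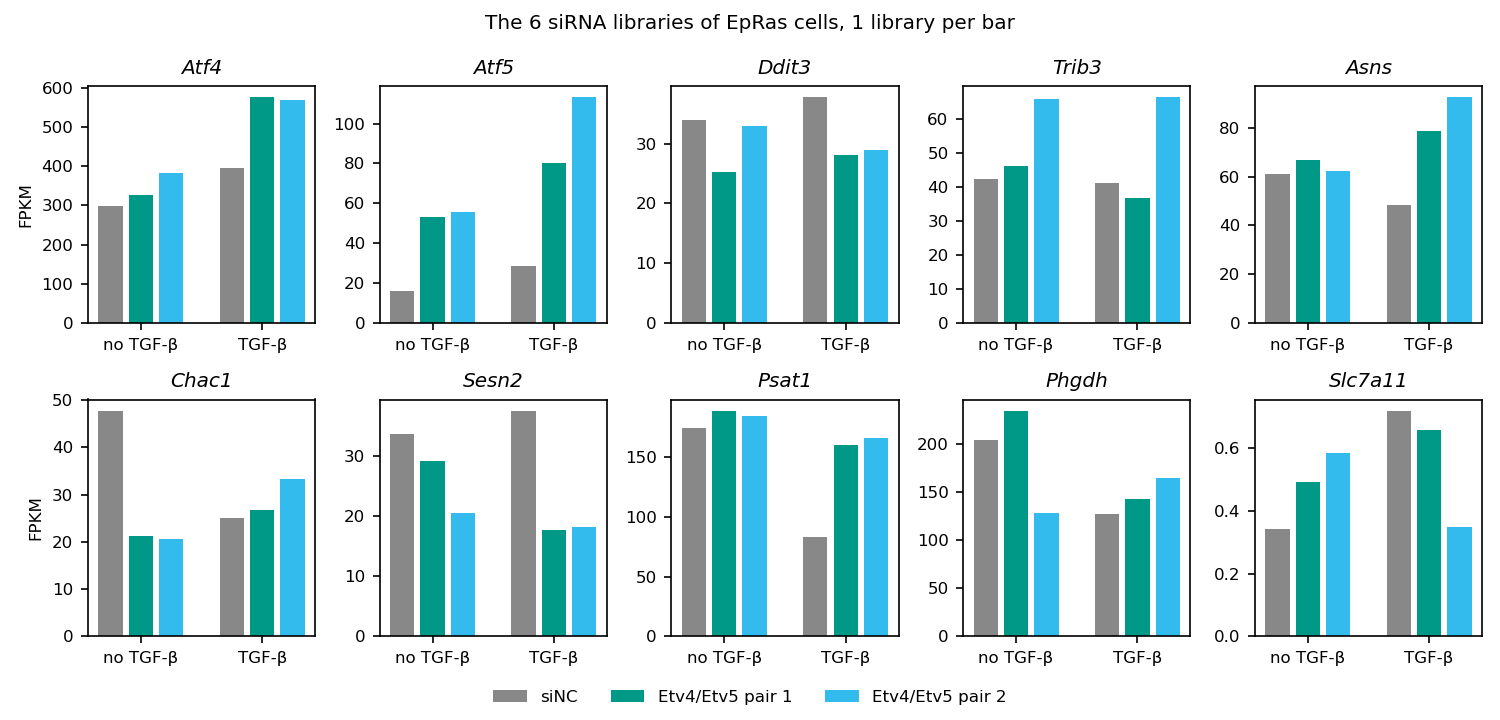
FPKM of the 10 genes in the 6 libraries of transfected EpRas cells, with 1 library per bar and axes that start at 0. Atf5 is above siNC with both pairs in both TGF-β states, Chac1 is high in the untreated siNC library, and Psat1 and Asns are lowest in the TGF-β-treated siNC library.

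Trib3 differed between the pairs. It measured 42.3 FPKM with siNC, 46.1 with pair 1 and 65.97 with pair 2 without TGF-β, and 41.1, 36.8 and 66.4 FPKM with TGF-β. Pair 2 alone was above siNC beyond 1.5-fold, at 1.56 (1.41 to 1.73) and 1.62 (1.48 to 1.76). Pair 1 gave 1.09 (0.981 to 1.21) and 0.896 (0.812 to 0.988).

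Chac1 measured 47.7 FPKM with siNC, 21.1 with pair 1 and 20.6 with pair 2 without TGF-β, and 25.04, 26.7 and 33.3 FPKM with TGF-β. Only the untreated siNC library was high among the 6. The ratios to siNC were 0.443 (0.382 to 0.514) and 0.431 (0.370 to 0.502) without TGF-β, and 1.07 (0.926 to 1.23) and 1.33 (1.16 to 1.52) with TGF-β. The ratio of TGF-β-treated to untreated cells was 0.525 (0.460 to 0.598) with siNC, 1.26 (1.08 to 1.48) with pair 1 and 1.62 (1.38 to 1.89) with pair 2. In untransfected EpRas cells, in a table normalised separately, the log2 effect of TGF-β on Chac1 was 0.33 (SE 0.19, adjusted p = 0.478, limma).

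Sesn2 was lower with the siRNAs. It measured 33.7, 29.2 and 20.6 FPKM without TGF-β, and 37.6, 17.8 and 18.2 FPKM with TGF-β. Both siNC libraries lay above the other 4. The ratios were 0.867 (0.777 to 0.967) and 0.610 (0.540 to 0.688) without TGF-β and 0.473 (0.424 to 0.528) and 0.485 (0.433 to 0.543) with TGF-β.

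The enzymes Asns and Psat1 were past 1.5-fold with both pairs in the TGF-β-treated cells. Asns measured 60.8, 66.8 and 62.4 FPKM without TGF-β, and 48.2, 78.6 and 92.5 FPKM with TGF-β. Its ratios were 1.10 (1.00 to 1.20) and 1.03 (0.933 to 1.13) without TGF-β, and 1.63 (1.51 to 1.77) and 1.92 (1.77 to 2.08) with TGF-β. Psat1 measured 174, 189 and 185 FPKM without TGF-β, and 83.4, 160.0 and 166 FPKM with TGF-β, with ratios of 1.92 and 1.99 in the latter. For both genes the TGF-β-treated siNC library was the lowest of the 6. With TGF-β, Psat1 stood at 0.479 of its untreated level in siNC cells, and at 0.848 and 0.900 with the pairs.

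Phgdh, the first enzyme of the same pathway, measured 205, 235 and 128 FPKM without TGF-β, and 127, 143 and 165 FPKM with TGF-β. The pairs lay on opposite sides of siNC without TGF-β, with ratios of 1.15 (1.09 to 1.21) and 0.626 (0.590 to 0.664). With TGF-β the ratios were 1.12 (1.06 to 1.19) and 1.30 (1.23 to 1.37). Slc7a11 measured 0.343, 0.494 and 0.586 FPKM without TGF-β, and 0.720, 0.660 and 0.3498 FPKM with TGF-β. Its reads numbered 23 to 84.

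Counted at 1.5-fold in both pairs, Atf5 was higher in both TGF-β states, which is what selected the set. Of the other 8 genes past the filter, 0 were higher and 1 lower (Chac1) without TGF-β, where 6.74% of all genes were higher and 7.41% lower. With TGF-β 2 of the 8 were higher (Asns and Psat1) and 1 lower (Sesn2), where 5.65% of all genes were higher and 6.87% lower. The median log2 difference of these 8 genes, by the mean of both pairs, was −0.071 without TGF-β and 0.27 with TGF-β, against 0.0092 and 0.03 for all genes. Since the set was chosen in these libraries, the counts are a description. These comparisons have 1 library per condition and describe those libraries. They share the siNC libraries, so the agreement of the pairs is not a replicate check of siNC.

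**Figure D4:**
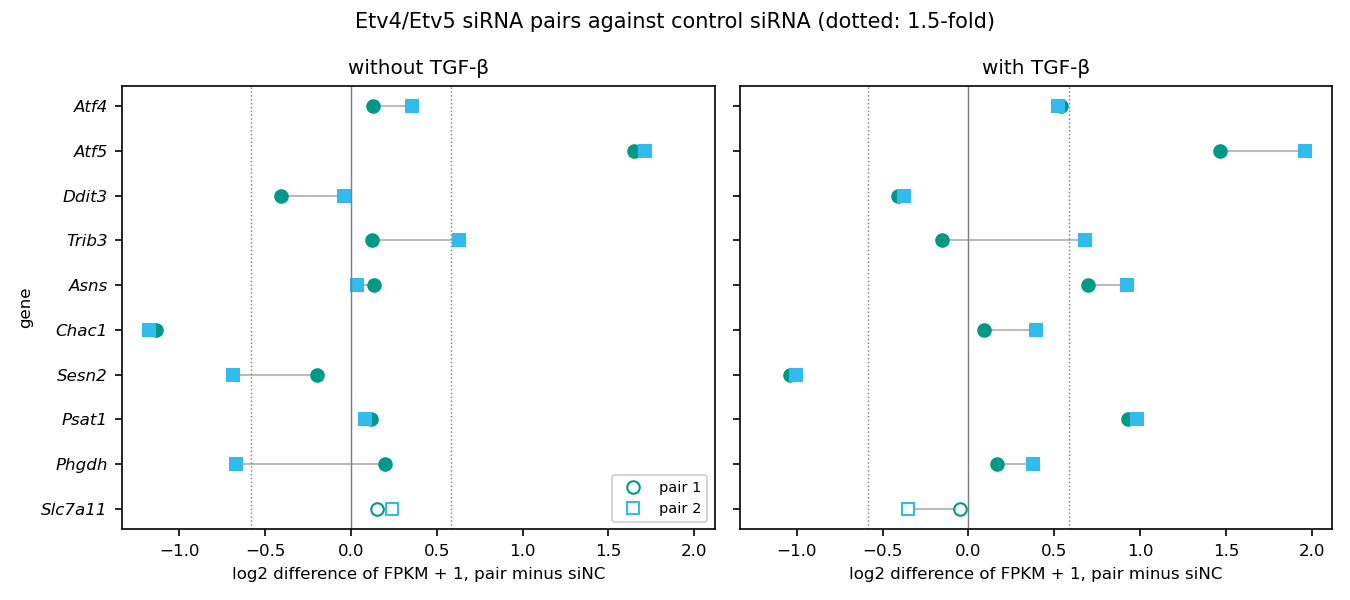
Log2 differences of FPKM + 1 of each siRNA pair from siNC, without and with TGF-β. Circles are pair 1, squares pair 2, dotted lines mark 1.5-fold in either direction, and open symbols mark Slc7a11, which lies below the filter. Atf5 lies beyond the line in all 4 comparisons, Chac1 in the untreated ones, and Asns, Psat1 and Sesn2 in the treated ones.

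On the log2(FPKM + 1) scale, TGF-β moved 0 of the 9 genes by 1.5-fold or more in the same direction in siNC, pair 1 and pair 2 cells, where 3.14% of all genes were higher and 1.99% lower. With 1 library per condition no test was run. The plain FPKM ratios of TGF-β-treated to untreated cells for Atf5 were 1.74 in siNC, 1.505 with pair 1 and 2.04 with pair 2, all past 1.5-fold. The pseudocount of 1 FPKM brought pair 1 to a log2 difference of 0.5805, just under the limit, and Atf5 passed it with a pseudocount of 0.1 FPKM. The FPKM ratios of Atf4 were 1.33 (1.27 to 1.38), 1.77 (1.71 to 1.83) and 1.49 (1.44 to 1.54). In untransfected EpRas cells the TGF-β-treated Atf5 replicates lay on both sides of the untreated ones.

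By mean FPKM over the untransfected libraries the order of the levels was Atf4 (529), Phgdh (238), Psat1 (162), Atf5 (116), Asns (106), Trib3 (44.8), Ddit3 (36.8), Chac1 (31.2), Sesn2 (9.86) and Slc7a11 (0.524). Over the siRNA libraries Asns (68.2) came before Atf5 (57.8), and the other genes kept their places. That mean of Atf5 includes the siRNA pairs: in the untreated siNC library Atf5, at 16.3 FPKM, was below Sesn2 (33.7), Ddit3 (34.0), Trib3 (42.3) and Chac1 (47.7). In the untransfected libraries the ranges of Phgdh, Psat1, Atf5 and Asns overlapped from neighbour to neighbour, as did those of Trib3, Ddit3 and Chac1, whereas Atf4, Sesn2 and Slc7a11 stood apart. Untreated siNC cells had 16.3 FPKM of Atf5 where untransfected EpRas cells had a mean of 92.0, and 33.7 FPKM of Sesn2 against 11.6. These levels come from separate tables, and transfection, processing and normalisation cannot be told apart in them.

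The likeness of other genes to Atf5 was described by correlation over libraries. Over the 8 untransfected libraries, the 5 genes closest to Atf5 by Pearson's r on log2(FPKM + 1) were Tmco3 (0.992), Gnb2 (0.987), Stk19 (0.977), Adrbk1 (0.976) and Snx12 (0.972) among 9099 genes. Of the set, r was 0.58 for Ddit3, 0.38 for Phgdh, 0.25 for Atf4, −0.058 for Asns, −0.15 for Sesn2, −0.47 for Psat1, −0.48 for Trib3 and −0.49 for Chac1. Over the 6 siRNA libraries the closest were Top2b (0.997), Hace1 (0.996), Lars (0.994), Akt1 (0.993) and Mzt2 (0.992) among 9093 genes, while r was 0.81 for Atf4, 0.80 for Asns, 0.46 for Trib3, 0.30 for Psat1, −0.19 for Phgdh, −0.42 for Chac1, −0.63 for Ddit3 and −0.87 for Sesn2. These are descriptions over few libraries that share cell line, treatment and transfection, and the siRNA values of Atf5 are those on which the set was chosen.

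Further genes of the pathway were followed in lists. Their calls between untransfected groups, with those of the ER and mitochondrial chaperones, numbered 15 of 87 genes tested (17.2%) between the lines without TGF-β and 15 (17.2%) with TGF-β, where 17.6% and 21.3% of all genes were called in either direction. For TGF-β 14 of the 87 (16.1%) were called in EpH4 and 1 (1.15%) in EpRas cells, where 9.4% and 3.82% of all genes were. The calls of Cth and Mthfd2 between the lines without TGF-β, of Eif2ak3 and Vegfa for TGF-β in EpH4 and of Vegfa for TGF-β in EpRas cells held without any 1 of the 8 libraries. So did those of Fgf21 and Dnajb9 between the lines with TGF-β, but these genes reached the filter only in libraries of the line in which they were high, so that this supports nothing. The other 38 calls did not hold throughout. Between the lines with TGF-β, 7 were lost without replicate 1 or 2 of the TGF-β-treated EpRas cells. Without replicate 1 the adjusted p (limma) was 0.103 for Eif2b3, 0.0984 for Slc7a1, 0.105 for Mthfd2 and 0.0609 for Pdia4, and without replicate 2 it was 0.0506 for Mthfd1l. For Atf3 it was 0.0564 and 0.134, and for Hspa5 0.127 and 0.0508, without replicate 1 or 2.

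Upstream of the factors, the list of eIF2 kinases, eIF2 and eIF2B subunits and eIF2α phosphatase subunits had 14 genes, all tested. TGF-β raised 2 of them in EpH4 cells, where 6.48% of all genes were called higher. Eif2ak3, the kinase PERK, rose by 1.496 on the log2 scale (SE 0.19, adjusted p = 0.00321, limma), and Ppp1r15a, the stress-induced GADD34 that restores translation, rose by 1.00 (SE 0.20, adjusted p = 0.0233). None of the 14 was called for TGF-β in EpRas cells, where 3.82% of all genes were called in either direction. Between the lines without TGF-β, 1 was called, the eIF2B subunit Eif2b1, lower in EpRas cells by −0.70 (SE 0.16, adjusted p = 0.0258, limma; 9.11% of all genes were called lower). With TGF-β 1 was called higher in EpRas cells, Eif2b3, by 1.10 (SE 0.27, adjusted p = 0.0275), and 1 lower, Eif2ak3, by −0.94 (SE 0.19, adjusted p = 0.0114), where 8.92% and 12.3% of all genes were called. With the siRNAs Ppp1r15a was lower with both pairs, by a mean log2 difference of −1.05 without and −1.06 with TGF-β, and with TGF-β Eif2b3 was higher by 1.19 and Eif2ak2, the kinase PKR, lower by −0.88. Past 1.5-fold were thus 0 higher and 1 lower of the 14 without TGF-β (6.74% and 7.41% of all genes), and 1 higher and 2 lower with TGF-β (5.65% and 6.87%).

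Of 7 bZIP partners of Atf4, 6 were tested. Atf3, itself a target of Atf4, was higher in EpRas than in EpH4 cells with TGF-β, by 0.76 (SE 0.22, adjusted p = 0.0485, limma), and none was called in the other comparisons of untransfected cells. The call of Atf3 was 1 of 6, where 8.92% of all genes were called higher. Of all genes, 17.6% were called between the lines without TGF-β. For TGF-β 9.4% were called in EpH4 and 3.82% in EpRas cells, and 0.802% for the difference of these effects. With both siRNA pairs, Cebpb was higher without TGF-β, by a mean of 0.92, and Batf3 was past the limit in the other direction with TGF-β (mean −1.29). Each was 1 of 6, where 6.74% of all genes were higher without TGF-β and 6.87% lower with TGF-β. Batf3 passed the filter through the TGF-β-treated siNC library alone, at 7.58 FPKM against 1.53 to 3.84 in the other 5, so it entered through the control library with which it was compared. TGF-β gave more Atf3 by 1.5-fold or more in siNC, pair 1 and pair 2 cells, with a log2 difference of 0.84 in siNC cells. Atf3 was 1 of 6 here, where 3.14% of all genes were higher in this way.

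Among the other targets, 13 aminoacyl-tRNA synthetases held 1 call between the untransfected groups, Lars, higher by 0.73 (SE 0.14, adjusted p = 0.00873, limma) in EpRas than in EpH4 cells with TGF-β, where 8.92% of all genes were called higher and 21.3% in either direction. With both siRNA pairs Sars, the seryl-tRNA synthetase, was higher by a mean log2 difference of 1.25 without and 1.19 with TGF-β, and it was the only one of the 13 past 1.5-fold, a share near the 6.74% and 5.65% of all genes that were higher. Of 9 amino acid transporters, 7 were tested. Slc7a1, a carrier of cationic amino acids, was lower in EpRas than in EpH4 cells without TGF-β, by −0.59 (SE 0.15, adjusted p = 0.0355, limma), and with TGF-β, by −0.58 (SE 0.15, adjusted p = 0.0333). Slc1a5, a glutamine carrier, was higher with TGF-β by 1.22 (SE 0.27, adjusted p = 0.0180), which gives 1 of 7 lower without TGF-β (9.11% of all genes) and 1 higher and 1 lower with TGF-β (8.92% and 12.3%). With both siRNA pairs Slc1a4, Slc1a5 and Slc7a5 were past 1.5-fold without TGF-β (higher by 0.91, 0.82 and 0.88), and Slc1a5 and Slc6a9 with TGF-β (higher by 0.75 and 0.81), against 6.74% and 5.65% of all genes higher.

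Of 12 further enzymes of serine, glycine, one-carbon and amino acid metabolism, 10 were tested between the untransfected groups and 9 passed the filter in the siRNA libraries. Mthfd2, Mthfd1l and Gpt2 were past 1.5-fold with both pairs with TGF-β (higher by 1.18, 1.02 and 0.82), where 5.65% of all genes were higher. Without TGF-β 0 of 9 were past it, where 6.74% of all genes were higher and 7.41% lower. Between the lines without TGF-β, Mthfd2 and Cth were lower in EpRas cells, by −1.10 (SE 0.17, adjusted p = 0.00522, limma) and −1.40 (SE 0.20, adjusted p = 0.00357), which is 2 of 10 where 9.11% of all genes were called lower. With TGF-β Mthfd2 was again lower in EpRas cells, by −0.64 (SE 0.17, adjusted p = 0.0332), and Mthfd1l was higher by 0.55 (SE 0.14, adjusted p = 0.0302), each 1 of 10 where 12.3% and 8.92% of all genes were called. TGF-β lowered 2 of the 10 enzymes in EpH4 cells, where 2.91% of all genes were called lower, Shmt1 by a log2 effect of −0.97 (SE 0.22, adjusted p = 0.0384) and Mthfd1l by one of −0.66 (SE 0.14, adjusted p = 0.0288).

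Of 14 other stress-induced targets, 12 were tested between the untransfected groups. TGF-β raised 4 of them in EpH4 cells, where 6.48% of all genes were called higher, among them Vegfa, the angiogenic factor, by 2.68 (SE 0.17, adjusted p = 0.000192, limma), Ddit4 by 1.31 (SE 0.22, adjusted p = 0.0124) and Nfil3 by 0.91 (SE 0.20, adjusted p = 0.0343). In EpRas cells 1 was called, Vegfa, by 2.50 (SE 0.17, adjusted p = 0.000524), where 1.9% of all genes were called higher. Between the lines without TGF-β, Sqstm1, an autophagy receptor, was higher in EpRas cells by 0.59 (SE 0.16, adjusted p = 0.0432). This was 1 of 12, where 8.45% of all genes were called higher. With TGF-β 3 were lower in EpRas cells and 1 higher, where 12.3% and 8.92% of all genes were. The largest were Fgf21, a secreted metabolic hormone, at −2.15 (SE 0.34, adjusted p = 0.00450), Stc2 at 1.32 (SE 0.30, adjusted p = 0.0190) and Ddit4 at −1.20 (SE 0.22, adjusted p = 0.00838). Fgf21 reached the filter only in the 2 TGF-β-treated EpH4 libraries, at 5.70 and 5.32 FPKM, with at most 2.74 FPKM elsewhere, so it entered the test through the group in which it was high and its call is no support for a difference.

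In the siRNA libraries 11 of these 14 targets passed the filter. Without TGF-β, Bbc3, the pro-apoptotic PUMA, was higher with both pairs by a mean of 1.55, and Sqstm1 and Map1lc3b, another autophagy gene, were lower by −1.20 and −0.85. With TGF-β Nfil3 was higher by 1.01, and Nupr1 and Sqstm1 were lower by −1.53 and −1.05. Thus 1 was higher and 2 were lower in either state, against 6.74% and 7.41% of all genes without and 5.65% and 6.87% with TGF-β. TGF-β itself gave more Vegfa and Ddit4 in siNC, pair 1 and pair 2 cells, with log2 differences of 1.71 and 0.71 in siNC cells, and 3.14% of all genes were higher in this way.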

How the data were processed

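RNA-seq was performed in 14 libraries. The authors aligned reads to mm10 and quantified genes with Cuffdiff, and the submitters' processing notes name TopHat2 2.0.11, Bowtie2 2.2.2.2 and Cufflinks 2.2.0. The deposited values are FPKM, in 2 tables of 23284 genes from separate runs, so each table was analysed alone. Genes without OK status (3 and 2) or with a maximum under 5 FPKM were left out, leaving 9100 and 9094. For the untransfected groups, limma 3.58.1 (R 4.3.3) was run on log2(FPKM + 1), 1 fit to all 8 libraries, Benjamini-Hochberg adjustment over all genes, threshold 0.05. The pseudocount understates the change of low genes. A simulation of the comparison of EpRas with EpH4 cells without TGF-β recovered 175 of 200 changed genes. This holds for the change simulated in that comparison, 2 on the log2 scale in either direction, which exceeds the called differences of Trib3 and Chac1. It does not give the recovery of smaller changes. siRNA conditions, with 1 library each, were compared by fold (1.5-fold in both pairs). Whole reads were recovered from FPKM steps for 8 of the 10 genes within 0.06 reads, and depth limits their intervals. Python 3.11.15 was used.

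The genes and lists were chosen with earlier results of these data known. All 10 genes are named, and from each list at most the 3 called genes with the largest difference per comparison. Alternatives were another pseudocount, filter, scaling, eBayes setting, a replicate block, each library left out, the Tukey-Kramer test and another fold. Cuffdiff intervals, also FPKM, were used only for Atf5 and Ddit3. Searches of the promoters for ETS strings are not reported here.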

Additional observations from a re-analysis of the deposited data

Results flagged for a closer look

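In transfected EpRas cells, both siRNA pairs lay below siNC for Chac1 without TGF-β, with a mean log2 difference of −1.16, and above it with TGF-β, with a mean of 0.24. The difference was not tested, since each condition has 1 library, and each mean rests on a single siNC library.

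Slc7a11, which lay below 1 FPKM in every library, drew attention by opposite directions in 3 respects, none of them tested within the filter. Both pairs lay above siNC without TGF-β (mean log2 difference 0.20) and below it with TGF-β (−0.20). The FPKM ratios, with intervals of counting error only, were 1.44 (0.853 to 2.49) and 1.71 (1.02 to 2.93) without TGF-β. With TGF-β they were 0.916 (0.648 to 1.29) and 0.486 (0.307 to 0.749), so the intervals of pair 1 included 1 in both states. In the untransfected cells, both TGF-β-treated libraries lay below the untreated ones in EpH4 cells (log2 effect −0.10) and above them in EpRas cells (0.51). The EpRas libraries were both under the EpH4 ones without TGF-β (−0.087) and over them with TGF-β (0.53). When genes of all levels were tested, the difference of the TGF-β effects was 0.62 (SE 0.12, adjusted p = 0.115, limma) and did not pass the test.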

How the results depend on the processing

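Of 877 values of single genes recomputed under another setting, 829 were counted as unchanged. For the untransfected groups this meant the same direction and the same side of the threshold. For the siRNA libraries it meant a shift smaller than the standard deviation over the conditions averaged, with no threshold checked. The 2 calls between the lines without TGF-β fell to 0 by the Tukey-Kramer test and ranged from 0 to 3 when each library was left out, with 3 without either TGF-β-treated EpRas library. With TGF-β the count of 2 ranged from 2 to 4 when each library was left out. The count for TGF-β in EpH4 cells rose from 0 to 2 when only the groups compared were fitted. The count for TGF-β in EpRas cells rose from 0 to 1 without the filter and by the Tukey-Kramer test, and ranged from 0 to 1 when each library was left out. In the siRNA libraries, pair 2 alone placed 5 genes past 1.5-fold without TGF-β (chosen after seeing the data), against 2 with both pairs. A limit of 2-fold left 2 of 4 with TGF-β, and a pseudocount of 0.1 FPKM placed 1 gene past 1.5-fold with TGF-β in all 3 conditions. The causes were not tested. Leaving a library out changes the number of libraries and the values in a fit together.

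Directions turned only for values that were not called. When each library was left out, the difference between the lines without TGF-β ranged from −0.14 to 0.26 for Atf4, −0.56 to 0.14 for Atf5 and −0.44 to 0.28 for Phgdh. With TGF-β it ranged from −0.63 to 0.39 for Ddit3, −0.11 to 0.19 for Asns and −1.10 to 0.40 for Phgdh. The effect of TGF-β in EpH4 cells ranged from −0.27 to 0.030 for Asns and −0.023 to 0.20 for Sesn2. In EpRas cells it ranged from −0.13 to 0.54 for Atf4, −0.78 to 0.56 for Atf5, −0.32 to 0.70 for Ddit3 and −0.22 to 0.21 for Sesn2. The Tukey-Kramer differences of Atf5 and Sesn2 there were 0.137 and 0.0943 FPKM, and median-of-ratios scaling gave 0.0045 for Sesn2. The difference of the TGF-β effects ranged from −0.056 to 0.61 for Atf4, −0.31 to 0.12 for Sesn2 and −1.02 to 0.48 for Phgdh.

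Libraries of the same replicate number did not deviate together from their groups, with correlations between −0.347 and 0.0785. The lowest were −0.347 between untreated and TGF-β-treated EpRas cells and −0.259 between the untreated lines. A factor shared by libraries of unlike number was not tested, and a block on the replicate number cannot take it up. With the replicate number as a block, 2 genes were called between the lines without TGF-β, 2 with TGF-β, and 0 for each effect of TGF-β and for their difference, as without it. Over all genes the block moved the count for the difference of the TGF-β effects from 73 to 31 and that for TGF-β in EpH4 cells from 855 to 547. Over the other settings apart from left-out libraries, the counts of all genes called ranged from 880 to 2245, 1092 to 2755, 547 to 1239, 85 to 397 and 24 to 117 in the 5 comparisons, against 1598, 1935, 855, 348 and 73. These settings tested from 6187 genes (mean of at least 10 FPKM) to 15244 genes (no filter), so the counts are not shares of the same number. Depth limited Slc7a11 most, with at most 84 reads.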

Other observations

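The ER chaperones and ERAD genes of the Atf6 and Xbp1 arms, which form the other branches of the unfolded protein response, were higher in EpRas cells without TGF-β in 7 of 17 cases (8.45% of all genes were called higher). Sdf2l1, a component of ER chaperone complexes, was higher by 0.98 on the log2 scale (SE 0.18, adjusted p = 0.0114, limma), Hspa5, the chaperone BiP, by 0.96 (SE 0.16, adjusted p = 0.00706) and Creld2 by 0.72 (SE 0.15, adjusted p = 0.0190). None of the 7 calls held throughout when each of the 8 libraries was left out. The log2 differences then ranged from 0.84 to 1.13 for Sdf2l1, 0.85 to 1.08 for Hspa5 and 0.59 to 0.84 for Creld2. The median of the 17 genes was 0.55, against −0.0031 for all genes. With TGF-β 2 were higher and 1 lower (8.92% and 12.3% of all genes), and their median was 0.05. These were Dnajb9 at 1.85 (SE 0.30, adjusted p = 0.00513), Hspa5 at 0.55 (SE 0.16, adjusted p = 0.0481) and Pdia4 at −0.71 (SE 0.16, adjusted p = 0.0203). Dnajb9 reached the filter of 5 FPKM in 3 of the 8 libraries, all of EpRas cells, so it entered the test through the line in which it was high. The call of Hspa5 was lost when any 1 of the 8 libraries was left out. That of Pdia4 was lost without replicate 1 of the TGF-β-treated EpRas cells and without either TGF-β-treated EpH4 library. In EpH4 cells TGF-β raised 4 of the 17, where 6.48% of all genes were called higher, among them Herpud1, an ERAD adaptor, by 0.93 (SE 0.17, adjusted p = 0.0180, limma). Each of these 4 calls was lost when any 1 of the EpH4 libraries was left out, with log2 effects of 0.88 to 0.98 for Herpud1. In EpRas cells 0 of 17 were called for TGF-β, where 3.82% of all genes were. With the siRNAs 0 of 17 were past 1.5-fold with both pairs without TGF-β, where 6.74% of all genes were higher and 7.41% lower. With TGF-β 1 was past it (Xbp1, higher by a mean of 0.69), where 5.65% of all genes were higher.

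Of 8 mitochondrial chaperones and proteases, the chaperonins Hspe1 and Hspd1 were lower in EpRas than in EpH4 cells without TGF-β, by −1.16 (SE 0.27, adjusted p = 0.0263, limma) and −0.59 (SE 0.14, adjusted p = 0.0257), while the protease Lonp1 was higher by 0.73 (SE 0.18, adjusted p = 0.0302). This was 2 of 8 lower and 1 of 8 higher, where 9.11% and 8.45% of all genes were called. TGF-β lowered Hspe1 and Hspd1 in EpH4 cells, with log2 effects of −1.12 (SE 0.27, adjusted p = 0.0432) and −0.67 (SE 0.14, adjusted p = 0.0249), where 2.91% of all genes were called lower. With both siRNA pairs Hspe1 was higher by a mean of 0.84 without and 1.04 with TGF-β, and Hspd1 by 0.80 with TGF-β, which is 1 and 2 of 8 where 6.74% and 5.65% of all genes were higher.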
